A study of Homo sapiens with 8 samples.

Results

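The genes described here carry out MHC class I antigen presentation, and their transcript levels were measured in 2 human colon cancer cell lines. They are 10 of the 19775 genes that a probe set of the array names alone: B2M, HLA-E, HLA-F, TAP1, TAP2, TAPBP, PSMB8, PSMB9, PSMB10 and NLRC5. A probe set is a group of short oligonucleotides read together for 1 transcript, and each gene was represented by its probe set with the highest mean over the 8 arrays. Its other probe sets served as a check.

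Nearly every nucleated cell shows fragments of its own proteins on MHC class I molecules, so that CD8 T cells and natural killer cells can survey it. Proteins are cut by the proteasome, the TAP transporter carries the peptides into the endoplasmic reticulum, and chaperones there load them onto a heavy chain paired with beta-2 microglobulin. Interferon gamma is a textbook inducer of most of these genes, and loss of the pathway is a known route by which colon tumours escape T cells.

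The series asked which regulators differ between HT29 cancer spheres and their parental cells, and how cells made to express such a regulator differ from their control. Each of 4 groups had 2 arrays. HT29 spheres, labelled as first spheres, were grown without serum in DMEM-F12 with N2 supplement, bFGF and EGF, and HT29 parental cells in DMEM with fetal bovine serum. SW480 Snail cells are a stable line labelled as expressing Snail, and SW480 vector cells are the stable line carrying the empty vector, both in DMEM with serum. The labels do not say whether a stable line is 1 clone, nor whether both arrays of a group had their own culture. A p-value here thus weighs a difference against the spread between arrays, part of which may be technical. Medium and sphere form changed together, so their parts in any sphere result cannot be told apart.

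All values are log2 expression, where a difference of 1 is a 2-fold change. The medians of the arrays over all probe sets lay between 5.50 and 5.61. Partner arrays correlated at r = 0.991 to 0.995 over all genes, with 200 genes at least 2-fold apart between the HT29 parental arrays and 10 to 19 between those of any other group. SNAI1, which encodes Snail, stood at 6.32 and 6.38 on the arrays labelled Snail and at 6.36 and 6.34 on the vector arrays, a difference of 0.0034 ± 0.15 (SE; limma adjusted p = 0.99). A rise of SNAI1 was therefore not seen on the arrays labelled Snail, and they are called by that label throughout. SNAI1 rests on 1 probe set, and whether that set reads the introduced transcript is not given in the sources used here, so these arrays neither bear out the label nor settle that it is wrong. Every Snail change below is a difference between arrays so labelled. In spheres SNAI1 stood at 6.93 and 7.21, against 5.87 and 6.15 in parental cells, 1.07 ± 0.15 higher (limma adjusted p = 0.00032). Of 9 colon epithelium markers, 9 lay above the array median on every HT29 array and 8 on every SW480 array. Of 9 leukocyte markers, 2 did so in each group, and PTPRC, the common leukocyte antigen CD45, read 4.60 to 5.13 on the 8 arrays, below every array median.

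Of the 10 genes, 7 lie in the MHC region of chromosome 6. In RefSeq coordinates of GRCh38.p14, HLA-F spans chr6:29723434-29738532, HLA-E chr6:30489509-30494194, TAP2 chr6:32821831-32838739, PSMB8 chr6:32840717-32844679, TAP1 chr6:32845209-32853704, PSMB9 chr6:32854192-32859851 and TAPBP chr6:33299694-33314078. B2M lies at chr15:44711517-44718145, and PSMB10 and NLRC5 at chr16:67934506-67936850 and chr16:56989557-57083520. TAP1 and PSMB9 are transcribed away from each other from start sites 488 bases apart.

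The 250 bases before a start site are shown for 6 of the genes, because class I promoters are known for a few short elements. The choice of genes follows no test result, and PSMB8 and PSMB10, which also had such sequence, are not shown. TAP1 has a further start site, at chr6:32852761, whose sequence is not shown either. The lines are RefSeq sequence of GRCh38.p14 on the strand of the gene, written 5′ to 3′, and the capitals mark matches to the motifs named after them.
B2M, chr15:44711267-44711516, plus strand: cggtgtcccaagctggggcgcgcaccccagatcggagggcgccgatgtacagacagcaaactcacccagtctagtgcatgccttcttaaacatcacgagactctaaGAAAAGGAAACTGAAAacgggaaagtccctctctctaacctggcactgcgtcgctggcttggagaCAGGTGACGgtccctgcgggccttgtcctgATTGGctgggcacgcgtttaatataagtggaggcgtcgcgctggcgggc
HLA-F, chr6:29723184-29723433, plus strand: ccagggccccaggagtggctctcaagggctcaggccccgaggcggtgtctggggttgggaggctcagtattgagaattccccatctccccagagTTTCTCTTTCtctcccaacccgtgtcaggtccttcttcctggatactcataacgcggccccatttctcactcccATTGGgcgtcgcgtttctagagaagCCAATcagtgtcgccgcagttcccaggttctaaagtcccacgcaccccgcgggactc
TAP1, chr6:32853705-32853954, minus strand: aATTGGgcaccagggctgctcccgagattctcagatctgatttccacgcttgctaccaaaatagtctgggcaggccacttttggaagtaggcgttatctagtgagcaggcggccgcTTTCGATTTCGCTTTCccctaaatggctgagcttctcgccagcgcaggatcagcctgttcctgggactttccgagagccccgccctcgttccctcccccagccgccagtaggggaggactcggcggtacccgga
TAP2, chr6:32838740-32838989, minus strand: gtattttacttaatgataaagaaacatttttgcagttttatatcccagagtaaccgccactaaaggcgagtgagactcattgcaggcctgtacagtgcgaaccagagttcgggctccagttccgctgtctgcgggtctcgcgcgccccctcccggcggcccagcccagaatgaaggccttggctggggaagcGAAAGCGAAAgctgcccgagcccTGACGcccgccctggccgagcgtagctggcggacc
TAPBP, chr6:33314079-33314328, minus strand: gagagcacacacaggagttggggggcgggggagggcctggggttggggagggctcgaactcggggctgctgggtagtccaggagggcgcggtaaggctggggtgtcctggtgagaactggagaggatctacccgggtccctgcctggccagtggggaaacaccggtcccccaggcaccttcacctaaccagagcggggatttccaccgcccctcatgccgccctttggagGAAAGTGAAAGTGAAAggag
PSMB9, chr6:32853942-32854191, plus strand: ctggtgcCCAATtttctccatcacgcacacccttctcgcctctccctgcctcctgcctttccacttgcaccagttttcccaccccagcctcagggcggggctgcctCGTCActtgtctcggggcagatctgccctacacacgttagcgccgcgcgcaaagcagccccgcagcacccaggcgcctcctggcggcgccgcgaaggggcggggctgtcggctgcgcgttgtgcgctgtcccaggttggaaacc
The letters searched, on both strands, were GAAANNGAAA for the interferon-stimulated response element (ISRE), TTCNNNGAA for the gamma-activated site, CCAAT for the Y box, TGACG for the first bases of the cyclic AMP response element, and CAGGTG for the E box that Snail is known to bind. Windows of 300 bases, which add 50 bases after the start site, were found for 8 of the 10 genes, and HLA-E and NLRC5 had none. The ISRE letters were in a window of 7 of these 8 genes, PSMB9 being the exception, and in 3.57% of all 35116 windows. In B2M, TAP1 and TAPBP a pair of matches overlapped, which gives the longer runs of capitals. The TAP1 pair lies between the start sites of TAP1 and PSMB9, further from the PSMB9 start than its window reached. The Y box letters were in B2M, HLA-F, TAP1 and PSMB9, against 34.6% of all windows, and the single match of TAP1 and that of PSMB9 are the same 5 bases, read on opposite strands where the windows overlap. The TGACG letters were in B2M, TAP2, PSMB8 and PSMB9 (24.6% of all windows) and the gamma-activated site in TAP1 and PSMB8 (7.66%). The gamma-activated site match of TAP1 lies in the window of its start site at chr6:32852761, not in the TAP1 line shown. The E box letters were in B2M, where they overlap the TGACG match, and in PSMB8, against 20.6% of all windows. A gene with several windows counted once if any window matched, and a match is a run of letters, not a bound site.

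**Figure D1:**
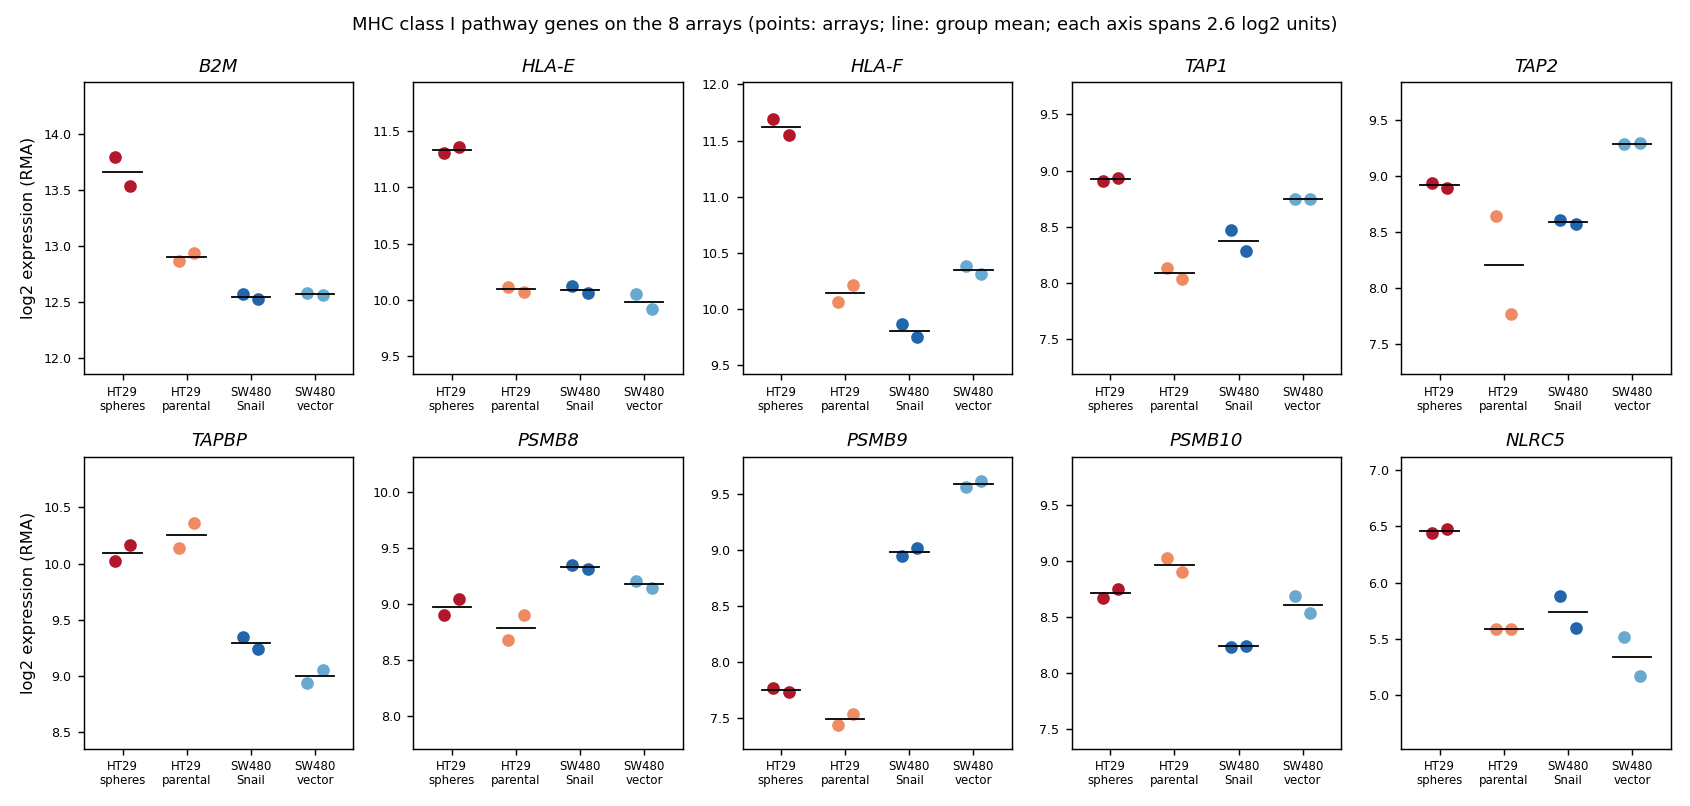
Log2 expression (RMA) of the 10 genes on each array, with points for arrays and a line for the mean of the 2 arrays of a group; every panel spans the same number of log2 units. The sphere arrays are the highest of the 8 for B2M, HLA-E, HLA-F, TAP1 and NLRC5, while the vector arrays are the highest for TAP2 and PSMB9.

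HT29 spheres carried more transcript of the surface molecule, of the peptide transporter and of the pathway's own activator than parental HT29 cells, and no immunoproteasome subunit passed the test. Of the 10 genes, 6 rose and 0 fell at a limma adjusted p under 0.05 over all 19775 genes: HLA-F, HLA-E, NLRC5, TAP1, B2M and TAP2. At an unadjusted p under 0.05 the counts were also 6 and 0. Over all genes 31.4% were called in this comparison, 12.4% higher and 19% lower. The median change of the 10 genes was 0.74, against 0.040 for all genes. In these bulk samples more RNA per cell and more cells carrying it cannot be told apart.

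B2M encodes beta-2 microglobulin, the light chain that every class I heavy chain needs to reach the surface. It read 13.79 and 13.53 in spheres, against 12.86 and 12.94 in parental cells. Both sphere arrays stood above both parental arrays, and the change of 0.76 ± 0.13 (SE, n = 2 each; limma adjusted p = 0.0013) is 1.70-fold. A second B2M probe set rose by 0.74 ± 0.13, and the dimmest, with group means of only 4.11 to 4.52, differed by 0.25 ± 0.20.

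HLA-E, a class I heavy chain that shows leader peptides of other class I molecules to natural killer cells, read 11.31 and 11.36 in spheres and 10.11 and 10.07 in parental cells. The groups were far apart beside their own spread, a rise of 1.24 ± 0.12 or 2.36-fold (limma adjusted p = 3.6e-05). HLA-F, a class I heavy chain that can also reach the surface without peptide, read 11.69 and 11.55 in spheres and 10.06 and 10.22 in parental cells. Its rise of 1.48 ± 0.13, or 2.79-fold (limma adjusted p = 1.7e-05), was the largest among the 10 genes in this comparison. The probe sets used for HLA-E and HLA-F carry the suffix that Affymetrix gives to sets whose probes also match other transcripts, and class I heavy chains are near-identical. Probe sets of these genes without that suffix rose too, by 0.92 ± 0.17 for HLA-E (limma adjusted p = 0.0021) and by 1.52 ± 0.15 for HLA-F (limma adjusted p = 3.8e-05). That HLA-F set was dim, at 5.29 and 5.23 in parental cells, below the medians of their arrays.

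TAP1 and TAP2 pair to form the transporter that moves peptides into the endoplasmic reticulum. TAP1 read 8.91 and 8.94 in spheres and 8.13 and 8.03 in parental cells, 0.84 ± 0.13 higher (limma adjusted p = 0.00054). Both sphere arrays lay above both parental arrays. TAP2 read 8.94 and 8.90 in spheres and 8.64 and 7.78 in parental cells, a difference of 0.71 ± 0.23 (limma adjusted p = 0.036). Its parental arrays lay 0.87 apart, further than those of any other of the 10 genes. Without parental array 2 the TAP2 difference was 0.27 (limma adjusted p = 0.15), and of its other probe sets 1 rose by 0.60 ± 0.18 while 2 differed by 0.016 ± 0.19 and -0.25 ± 0.16. TAPBP, or tapasin, which tethers class I molecules to the transporter, read 10.03 and 10.17 in spheres and 10.14 and 10.36 in parental cells. These groups overlapped (difference -0.16, interval -0.45 to 0.14, limma adjusted p = 0.43), but a dimmer TAPBP probe set rose by 0.75 ± 0.18 (limma adjusted p = 0.012), so the direction of TAPBP depends on the probe set.

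The catalytic subunits that replace their constitutive counterparts in the immunoproteasome stayed under the threshold. PSMB9 (LMP2) read 7.77 and 7.73 in spheres and 7.44 and 7.54 in parental cells, a difference of 0.26 with an interval of -0.0043 to 0.53 (limma adjusted p = 0.13). With the arrays quantile-normalised again it was 0.44 and passed (limma adjusted p = 0.017). PSMB8 (LMP7) read 8.90 and 9.05 in spheres and 8.68 and 8.90 in parental cells, 0.19 apart with an interval of -0.11 to 0.48. PSMB10 (MECL-1) read 8.67 and 8.75 in spheres and 9.02 and 8.90 in parental cells, -0.25 with an interval of -0.53 to 0.027. The arrays of the groups did not overlap for any of these subunits, which was so for 62.9% of all genes in this comparison.

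NLRC5 is a transactivator that sits on the SXY elements of class I promoters and switches on heavy chains, B2M, TAP1 and PSMB9. It read 6.44 and 6.47 in spheres and 5.58 and 5.58 in parental cells, 0.88 ± 0.15 higher (limma adjusted p = 0.0015). Both pairs were tight and far apart. Its parental level was close to the array medians, where no measure of detection was used. B2M, HLA-E, HLA-F, TAP1 and NLRC5 passed in all 8 fits that left out 1 array, and TAP2 in 3 of the 8.

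**Figure D2:**
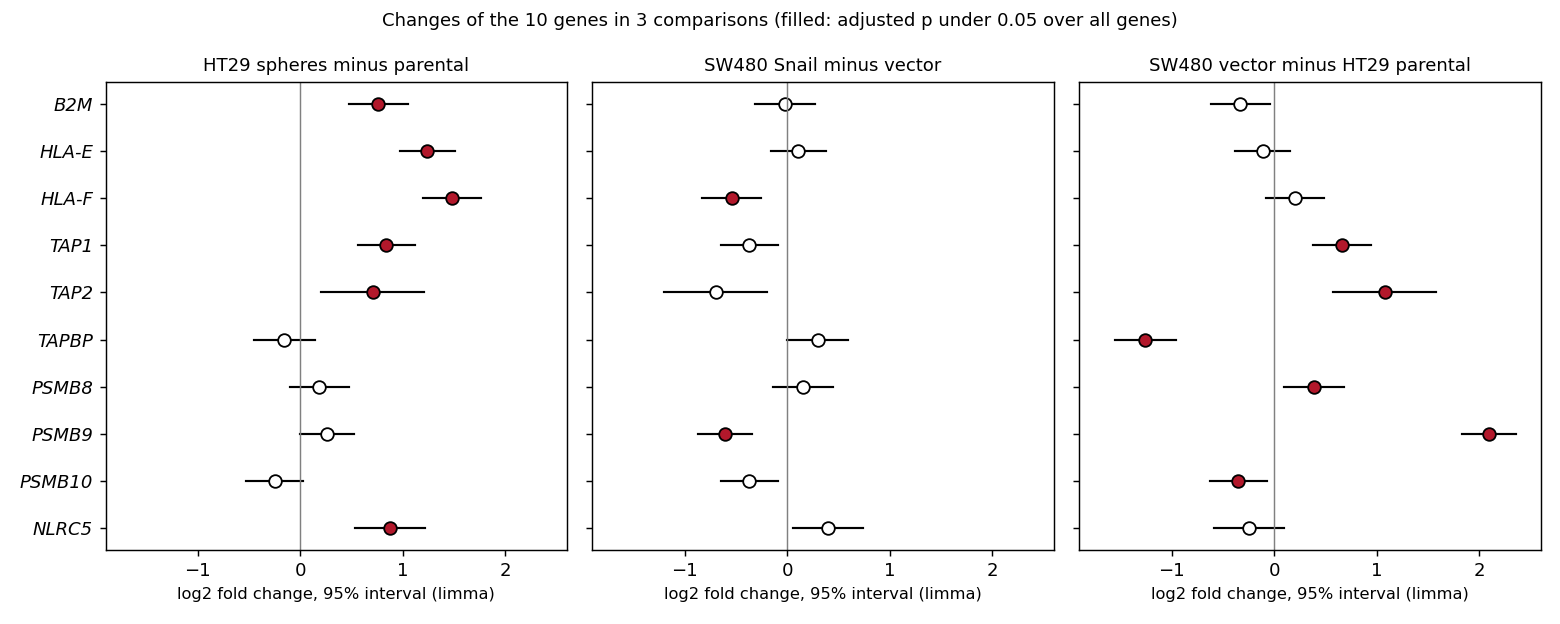
Log2 fold change of each gene (points) with its 95% interval from limma (bars) in spheres minus parental, Snail minus vector, and vector minus parental; filled points passed an adjusted p of 0.05 over all genes. In spheres 6 of the 10 points are filled, all above 0, and in the arrays labelled Snail 2, both below 0.

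The rest of the pathway, taken from lists of related genes, moved in both directions in spheres. Among class I heavy chains and class I-like genes, 4 of 8 measured rose and 1 fell, with a median change of 0.50. HLA-B, a classical heavy chain, read 13.54 and 13.43 in spheres against 10.93 and 11.02 in parental cells, 2.51 ± 0.12 higher (limma adjusted p = 6.5e-07). HLA-C rose by 1.65 ± 0.13 and HLA-G by 1.41 ± 0.13, and all probe sets of HLA-B, HLA-C and HLA-G bear the cross-matching suffix, so part of the signal of one may come from another. Of 11 genes of peptide loading and trimming, 2 rose and 5 fell. ERAP2, an aminopeptidase that trims peptides, read 8.86 ± 0.014 in spheres and 10.13 ± 0.16 in parental cells, a change of -1.28 ± 0.13 (limma adjusted p = 4.4e-05). ERAP1, its partner, fell by 1.05 ± 0.15, though the mean of its 5 probe sets differed by only -0.17 (limma adjusted p = 0.33). UGGT1, which senses unfolded glycoproteins, fell by 0.90 ± 0.13. The folding chaperones HSPA5 (0.85 ± 0.14) and CALR (0.47 ± 0.15, limma adjusted p = 0.032) rose. With its probe sets averaged HSPA5 differed by 0.40 and still passed, while CALR lost its call in 5 of the 8 fits that left out 1 array (0.35 to 0.60, limma adjusted p up to 0.21). CANX (-0.18 ± 0.12) and PDIA3 (0.089 ± 0.13) did not pass.

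Of 13 constitutive proteasome core subunits, 0 rose and 1 fell: PSMA4, by 0.79 ± 0.14. The counterparts of the immunoproteasome subunits did not pass, with differences of -0.25 ± 0.13 for PSMB5, -0.37 ± 0.13 for PSMB6 and -0.13 ± 0.12 for PSMB7. Of 8 activator and assembly genes, 1 rose and 4 fell, among them PSMG1, an assembly chaperone (-1.31 ± 0.13), and PSME1, a subunit of the PA28 activator (-0.77 ± 0.13).

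Of 14 transcription regulators of class I genes, 2 rose and 8 fell, with a median change of -0.71. IRF1, which binds the ISRE, read 7.20 and 7.22 in spheres and 8.87 and 8.54 in parental cells, a change of -1.50 ± 0.16 (limma adjusted p = 5.5e-05). RFXAP, a subunit of the RFX complex that recruits NLRC5 to promoters, fell by 2.51 ± 0.18 (limma adjusted p = 4.8e-06), and RFX5, its partner subunit, by 0.80 ± 0.14. RELA, an NF-kB subunit, rose by 0.93 ± 0.12. CIITA, the class II counterpart of NLRC5, differed by 0.23 ± 0.20 and did not pass, at levels not far above the array medians. The 8 that fell include EZH2, a known repressor of class I genes, named after its values were seen (-1.61 ± 0.22, limma adjusted p = 0.00035), so the list holds genes of opposite roles.

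Of 18 interferon-induced genes, 8 rose and 3 fell in spheres, with a median change of 0.41. IFI6 (2.07 ± 0.13), the antiviral GTPase MX1 (1.86 ± 0.12) and the RNA sensor OAS1 (1.67 ± 0.19) had the lowest adjusted p. Of 10 genes of interferon receptors and their signalling, 2 rose and 2 fell. IFNGR1, the ligand-binding chain of the interferon gamma receptor, rose by 0.71 ± 0.14, while IFNAR1, a chain of the type I receptor, fell by 0.75 ± 0.14, and JAK1, a kinase that serves both, differed by -0.51 ± 0.13 (limma adjusted p = 0.012) but by -0.15 when its probe sets were averaged. JAK1 also lost its call without 1 of the 8 arrays. MHC class II genes, which present peptides to CD4 T cells, had 1 of 12 higher and 0 lower, and the gene that passed, HLA-DPB1 (0.51 ± 0.14), lost its call when its probe sets were averaged (limma adjusted p = 0.056) and in 3 of the 8 fits that left out 1 array. Of 12 ligands of natural killer and T cell receptors, 4 rose and 2 fell. MICA (0.91 ± 0.12) and ULBP2 (1.11 ± 0.16), both ligands of the activating receptor NKG2D, rose, as did the probe set used for CD47 (0.93 ± 0.13), a signal against phagocytosis, whose mean over 7 probe sets differed by 0.19 (limma adjusted p = 0.17).

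Beside these results, the mean level of the leukocyte markers was 5.34 to 5.55 in spheres and 5.25 to 5.30 in parental cells, with 1 of 9 called, CD3E (0.39 ± 0.13), a call lost in 6 of the 8 fits that left out 1 array. That of endothelial and fibroblast markers was 5.84 to 6.05 in spheres and 5.32 to 5.39 in parental cells, with 2 of 9 called. LUM, a matrix proteoglycan, read 8.43 ± 0.031 in spheres and 4.65 ± 0.0061 in parental cells. PECAM1, the other, was 0.57 ± 0.16 higher (limma adjusted p = 0.018), but differed by -0.095 with its probe sets averaged (limma adjusted p = 0.58). The bioC control, a bacterial RNA added before hybridisation, read 10.47 ± 0.0039 on the sphere arrays and 8.82 ± 0.081 on the parental arrays. The other controls of that step, bioB, bioD and cre, differed by 0.32, 0.13 and 0.16, spheres minus parental. The part of these in the results was not tested.

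**Figure D3:**
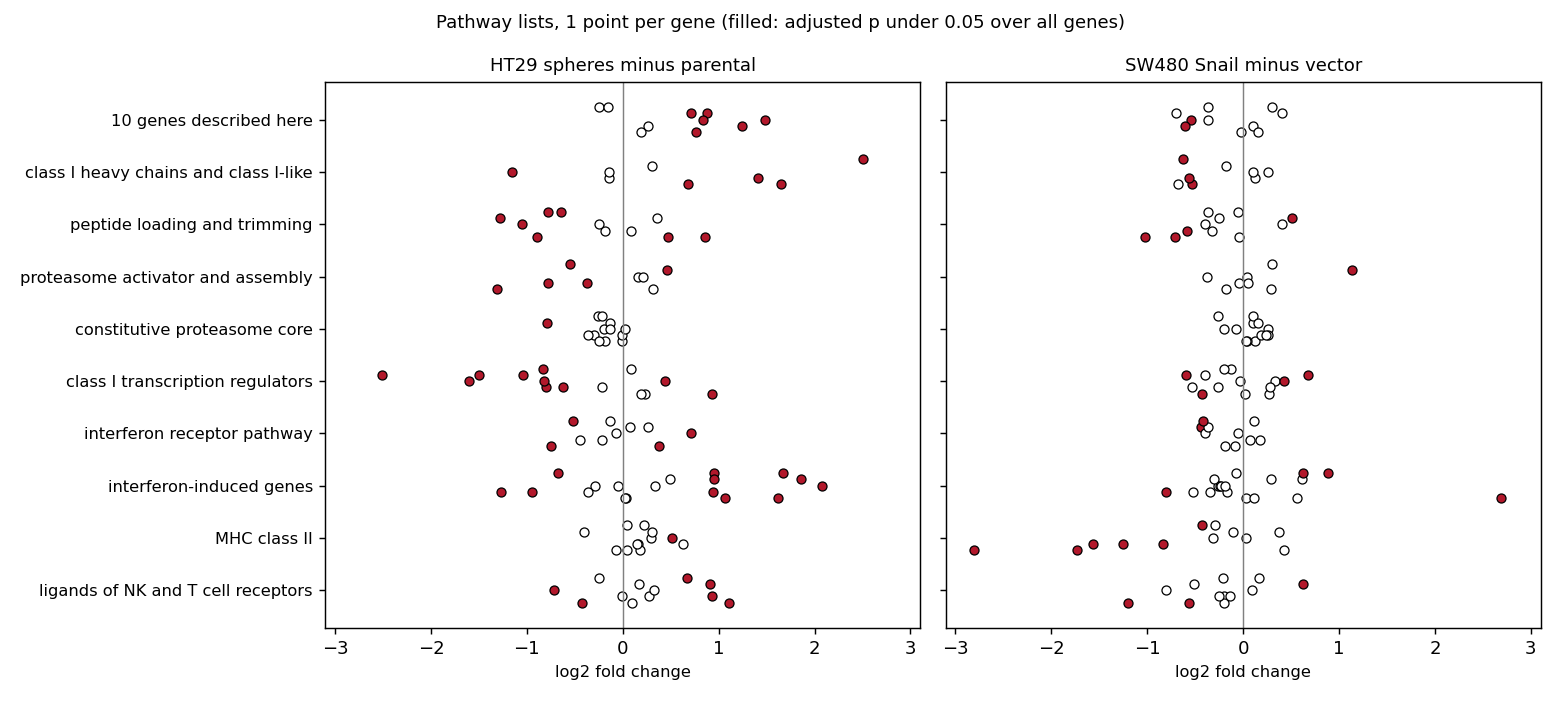
Log2 fold change of every measured gene of the 10 genes and of the related lists (rows), 1 point per gene, for spheres minus parental (left) and Snail minus vector (right); filled points passed an adjusted p of 0.05. In spheres the 10 genes and the interferon-induced genes have most filled points above 0 and the transcription regulators below 0, while on the arrays labelled Snail the class II genes reach furthest below 0.

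On the SW480 arrays labelled Snail, few of the 10 genes passed the test against the vector arrays. An immunoproteasome subunit and a heavy chain passed as lower, and none of the 10 as higher. Of the 10 genes, 0 rose and 2 fell, PSMB9 and HLA-F, while at an unadjusted p under 0.05 limma had 2 higher and 5 lower. Over all genes 16.2% were called in this comparison, 8.91% higher and 7.34% lower. The 2 of 10 called here is close to the share called over all genes. The median change of the 10 genes was -0.20, against 0.0073 for all genes.

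PSMB9 read 8.95 and 9.02 on the arrays labelled Snail and 9.56 and 9.62 on the vector arrays, a change of -0.61 ± 0.12 (limma adjusted p = 0.0073), or 1.52-fold lower. Both pairs were tight and did not overlap, yet the call was lost without vector array 2 (limma adjusted p = 0.059) or without Snail array 1 (0.061). A dimmer HLA-F probe set with the cross-matching suffix changed by -0.62 ± 0.14 (limma adjusted p = 0.015). The HLA-F set used read 9.86 and 9.75 on the arrays labelled Snail and 10.39 and 10.31 on the vector arrays. That is a change of -0.54 ± 0.13 (limma adjusted p = 0.017). Leaving out any of the 4 SW480 arrays lost that call (changes of -0.60 to -0.49), and the HLA-F probe set without the cross-matching suffix differed by -0.40 ± 0.15 (limma adjusted p = 0.12).

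TAP2 had the largest difference among the 10 genes, with 8.61 and 8.57 on the arrays labelled Snail against 9.29 and 9.29 on the vector arrays. At -0.70 ± 0.23 it missed the threshold (limma adjusted p = 0.062), in a fit whose spread for TAP2 includes the parental pair that lay 0.87 apart. With the SW480 arrays fitted alone TAP2 passed (limma adjusted p = 0.0065), and of its other probe sets 2 fell, by 0.86 ± 0.19 (limma adjusted p = 0.014) and 1.08 ± 0.18 (limma adjusted p = 0.0036), while the dimmest differed by 0.47 ± 0.16. TAP1 read 8.47 and 8.28 on the arrays labelled Snail and 8.75 and 8.74 on the vector arrays (-0.37 ± 0.13, limma adjusted p = 0.073). PSMB10 read 8.24 and 8.25 on the arrays labelled Snail and 8.69 and 8.54 on the vector arrays (-0.37 ± 0.12, limma adjusted p = 0.071). Neither TAP1 nor PSMB10 had overlapping groups, as was so for 60.4% of all genes, and both missed the threshold.

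The other members were close to the vector level or above it. B2M read 12.57 and 12.53 on the arrays labelled Snail and 12.58 and 12.56 on the vector arrays, a difference of -0.022 with an interval of -0.31 to 0.27. HLA-E differed by 0.11 (interval -0.16 to 0.38), PSMB8 by 0.15 (-0.14 to 0.44), TAPBP by 0.30 (0.0011 to 0.60) and NLRC5 by 0.40 (0.058 to 0.74), and none of these passed after adjustment. NLRC5 read 5.88 and 5.59 on the arrays labelled Snail and 5.51 and 5.17 on the vector arrays, and its vector values lay below the medians of their arrays. The HLA-E probe set without the cross-matching suffix pointed the other way from the one used, at -0.55 ± 0.17 (limma adjusted p = 0.059).

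Other class I heavy chains and class I-like genes had 0 of 8 higher and 3 lower on the arrays labelled Snail: HLA-B (-0.63 ± 0.12, limma adjusted p = 0.0067), HLA-G (-0.56 ± 0.13) and HLA-C (-0.54 ± 0.13). HLA-B lost its call without 2 of the 8 arrays and HLA-G and HLA-C without 4. Of 11 loading and trimming genes, 1 rose and 3 fell: the chaperones HSPA5 (-1.02 ± 0.14), CALR (-0.71 ± 0.15) and PDIA3 (-0.59 ± 0.13) fell and ERAP2 rose by 0.50 ± 0.13. ERAP2 lost its call when its probe sets were averaged (0.27, limma adjusted p = 0.12). Leaving out 1 array at a time lost the call of ERAP2 in 4 of 8 fits, of PDIA3 in 4 and of CALR in 2, and of HSPA5 in 0. Of 13 proteasome core genes 0 were called by limma, and 0 at an unadjusted p under 0.05, and of 8 activator and assembly genes only PSME4, a proteasome activator of the nucleus, was (1.14 ± 0.13). Of 14 transcription regulators 2 rose and 2 fell, with RFXAP at 0.68 ± 0.18, IRF1 at -0.59 ± 0.16 and RELA at -0.43 ± 0.12. Averaging their probe sets lost the calls of IRF1 (-0.36, limma adjusted p = 0.082) and RFXAP (0.49, limma adjusted p = 0.05). Leaving out 1 array at a time lost the call of IRF1 in 3 of 8 fits and those of RFXAP and RELA in 4 each.

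MHC class II genes fell furthest, with 6 of 12 lower and 0 higher. HLA-DRA, the alpha chain of HLA-DR, read 5.22 and 5.37 on the arrays labelled Snail and 8.16 and 8.03 on the vector arrays, a change of -2.81 ± 0.20 (limma adjusted p = 2.9e-05). CD74, the invariant chain that escorts class II molecules, fell by 1.73 ± 0.23 and HLA-DPA1 by 1.57 ± 0.15. CIITA, their master regulator, differed by 0.27 ± 0.20 and did not pass. It read 6.37 and 5.95 on the arrays labelled Snail and 5.86 and 5.92 on the vector arrays. These levels are not far above the array medians, where no measure of detection was used. Of 18 interferon-induced genes 3 rose and 1 fell, among them IFI27 (2.68 ± 0.17), IFIT3 (0.89 ± 0.15) and IRF7 (-0.81 ± 0.14), while of the receptor and signalling genes 0 rose and 2 fell, IFNGR2 (-0.44 ± 0.12) and TYK2 (-0.42 ± 0.12). Of 12 receptor ligands 1 rose, MICA (0.62 ± 0.12), and 2 fell, ULBP2 (-1.20 ± 0.16) and CD274, which encodes PD-L1 (-0.57 ± 0.14). In the 8 fits that left out 1 array TYK2 lost its call in 6, IFNGR2 in 4, CD274 in 3 and MICA in 2, with limma adjusted p up to 0.18. Leukocyte markers had 0 of 9 called by limma here, and 1 at an unadjusted p under 0.05, with mean levels of 5.13 to 5.28 on the arrays labelled Snail and 5.04 to 5.16 on the vector arrays. Probe sets for 18S ribosomal RNA read 6.75 ± 0.21 on the arrays labelled Snail and 5.35 ± 0.26 on the vector arrays. The bioB, bioC, bioD and cre controls differed by -0.33, -0.52, -0.44 and -0.25, Snail minus vector. The part of these probe sets and controls in the results was not tested.

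The test of the difference between the sphere change and the Snail change asks whether a gene moved unequally in the HT29 and SW480 pairs. It was past the threshold for 6 of the 10 genes, all towards a more positive change in spheres, against 27.5% of all genes, 10.6% higher and 16.9% lower. HLA-F moved most unequally, by 2.02 ± 0.18 (limma adjusted p = 4.3e-05), followed by TAP2 (1.41 ± 0.32), TAP1 (1.21 ± 0.18), HLA-E (1.13 ± 0.17), PSMB9 (0.87 ± 0.17) and B2M (0.78 ± 0.18). For HLA-F the changes have opposite signs and each passed its own test. For PSMB9 only the Snail change passed on its own, and for B2M, HLA-E, TAP1 and TAP2 only the sphere change. The differences for NLRC5 (0.48, interval -0.0059 to 0.96), PSMB8 (0.033, -0.38 to 0.44), PSMB10 (0.12, -0.27 to 0.51) and TAPBP (-0.46, -0.88 to -0.034) were not called after adjustment. A dimmer TAPBP probe set passed with the other sign, at 1.01 ± 0.26 (limma adjusted p = 0.018). Of the other TAP2 sets, the brighter ones differed by 0.88 ± 0.27 and 1.69 ± 0.26. The dimmest TAP2 set passed with the other sign, at -0.72 ± 0.22 (limma adjusted p = 0.043). Each of the 6 calls held in all 8 fits that left out 1 array.

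**Figure D4:**
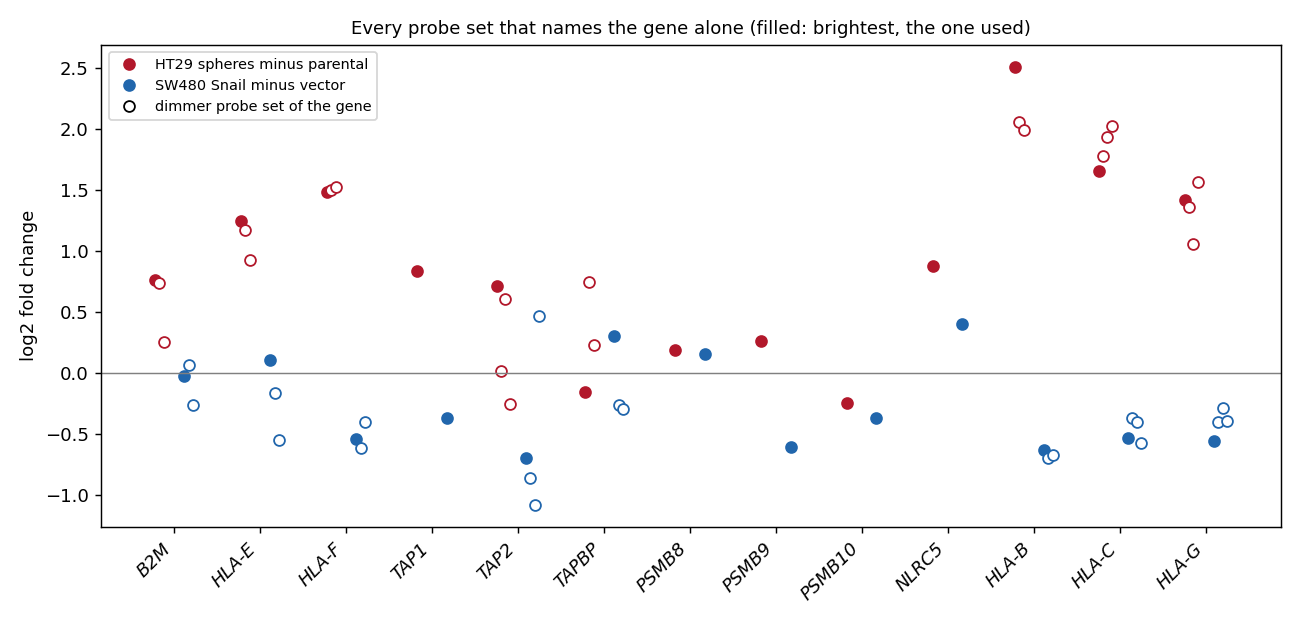
Log2 fold change of every probe set that names a gene alone (points), for spheres minus parental and Snail minus vector; filled points are the brightest set, which stands for the gene, and open points the dimmer ones. For HLA-F all 3 sets rise in spheres by 1.48 to 1.52, while the sets of TAPBP and TAP2 lie on both sides of 0.

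SW480 vector cells had more PSMB9, TAP2, TAP1 and PSMB8 transcript than HT29 parental cells, and less signal for TAPBP and PSMB10. Of the 10 genes 4 were higher and 2 lower, against 46.1% of all genes called, 22.6% higher and 23.5% lower, and their median change was 0.049, against 0.066 for all genes. These arrays also serve as the controls of the comparisons above. The groups differ in cell line as well as in the vector, and these cannot be told apart.

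PSMB9 read 9.56 and 9.62 in vector cells and 7.44 and 7.54 in HT29 parental cells, 2.10 ± 0.12 higher (limma adjusted p = 2.5e-07), a 4.28-fold difference. TAP1, whose start site lies beside that of PSMB9, read 8.75 and 8.74 in vector cells and 8.13 and 8.03 in HT29 parental cells, 0.66 ± 0.13 higher (limma adjusted p = 0.0014). Both genes were higher on every vector array than on either parental array, a lack of overlap that 72.2% of all genes had in this comparison. TAP2 was 1.08 ± 0.23 higher (limma adjusted p = 0.0026), a difference of 0.65 without parental array 2 that still passed. PSMB8 was 0.39 ± 0.13 higher (limma adjusted p = 0.033), the PSMB8 call being lost in 5 of the 8 fits that left out 1 array.

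TAPBP read 8.94 and 9.05 in vector cells and 10.14 and 10.36 in HT29 parental cells, 1.26 ± 0.13 lower (limma adjusted p = 2.5e-05, difference -1.26). A dimmer TAPBP probe set was 0.93 ± 0.18 higher (limma adjusted p = 0.002) and the average over its probe sets differed by -0.087, so no direction for TAPBP holds over its probe sets. PSMB10 differed by -0.35 ± 0.12 (limma adjusted p = 0.042) and kept that call in 1 of the 8 fits that left out 1 array. B2M differed by -0.33 (interval -0.62 to -0.038, limma adjusted p = 0.063), HLA-E by -0.11 (-0.38 to 0.16), HLA-F by 0.21 (-0.078 to 0.49) and NLRC5 by -0.24 (-0.58 to 0.099). The HLA-E probe set without the cross-matching suffix was lower in vector cells, at -1.30 ± 0.17 (limma adjusted p = 9.8e-05).

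Among related genes, ERAP2 read 5.45 ± 0.061 in vector cells and 10.13 ± 0.16 in HT29 parental cells, a difference of -4.68 ± 0.13 (limma adjusted p = 1.9e-09). Of 18 interferon-induced genes 2 were higher and 14 lower in vector cells, with IFI27 at -6.61 ± 0.17 and IFIT1 at -3.52 ± 0.19. Class II genes had 6 of 12 higher and 1 lower, with HLA-DRA 3.35 ± 0.20 higher. The constitutive core had 6 of 13 higher and 1 lower, including the counterparts PSMB6 (1.29 ± 0.13), PSMB7 (0.86 ± 0.12) and PSMB5 (0.46 ± 0.13), whose call was lost in 2 of the 8 fits that left out 1 array. MICB, an NKG2D ligand, read 8.98 ± 0.023 in vector cells and 4.69 ± 0.16 in HT29 parental cells.

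Set in order over the 4 groups, the genes fell into different patterns. B2M, HLA-E, HLA-F, TAP1 and NLRC5 were highest in spheres, with both sphere arrays above all other arrays. How many of all genes have that order was not counted, so it is not shown to be particular to these genes. TAP2 and PSMB9 were highest in vector cells, PSMB8 on the arrays labelled Snail, and TAPBP and PSMB10 in HT29 parental cells. Neighbours whose arrays overlapped were vector and Snail arrays for B2M, HT29 parental and Snail arrays for HLA-E, Snail and HT29 parental arrays for TAP2, HT29 parental cells and spheres for TAPBP, and spheres and vector cells for PSMB10. Over the 8 arrays B2M followed HLA-E (Pearson r = 0.944) and HLA-F (0.926), and TAP1 followed TAP2 (0.786), while PSMB9 ran against TAPBP (-0.986) and was weakly tied to TAP1 (0.274). These 8 points come from 4 groups, so the correlations describe the group pattern. For TAPBP and HLA-E, the order and the correlations are those of the probe set used. The HLA-E set without the cross-matching suffix had means of 10.37 in spheres and 9.45 in HT29 parental cells. Its means were 8.15 in vector cells and 7.60 on the arrays labelled Snail. A dimmer TAPBP set was, like PSMB9, highest in vector cells (mean 7.86) and lowest in HT29 parental cells (6.93).

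Outside the 10 genes, the levels most like those of TAP1 over the 8 arrays were those of IL2RG (r = 0.983), a cytokine receptor chain, HSPH1 (0.975), a heat shock protein, and SLC61A1 (0.972). IL2RG read 7.67 and 7.74 in spheres, 5.74 and 5.56 in HT29 parental cells, 6.31 and 6.39 on the arrays labelled Snail, and 7.23 and 7.10 in vector cells. For B2M they were those of MARCHF5 (r = 0.997), a mitochondrial ubiquitin ligase, LRRC8E (0.996), a subunit of volume-regulated anion channels, and SIRT7 (0.994), a nuclear deacylase.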

How the data were processed

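Expression was measured in 8 samples on an Affymetrix human array with 54675 probe sets. The authors deposited log2 expression values, and the submitters' processing notes name RMA as their method. Its version is not given in the sources used, nor is the set of arrays it was run on. RMA forces the arrays to a like distribution, so changes are relative to the bulk of transcripts. GEO's platform annotation named 41091 probe sets with 1 gene, 1801 with several and left 11721 unnamed; 62 are controls. A gene is its brightest probe set among those naming it alone, which gave 19775 genes; single probe sets were fitted in a separate table.

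Genes were tested with limma 3.58.1 (R 4.3.3), with a mean per group over all 8 arrays, 4 residual and 6.1 prior degrees of freedom, two-sided contrasts and Benjamini-Hochberg adjustment over all genes at 0.05. An exact permutation test of 2 arrays against 2 cannot go below p = 0.333 and was not used. Errors of changes are SE, intervals are 95%, and means carry ± SD over 2 arrays.

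The text names the 10 genes, SNAI1, up to 3 called genes per list with the lowest adjusted p, and genes central to the pathway. HSPA5 and EZH2 in spheres and PTPRC were added after their values were seen. The members and lists were chosen with earlier results of these data known. The fits were tested on simulated data. Alternatives were the mean of probe sets, a filter on the dimmest 40% of genes, quantile normalisation, each line alone, array weights, limma-trend, replicate number as a block, and leaving out each array. Probe sets naming several genes were left out.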

Additional observations from a re-analysis of the deposited data

Results flagged for a closer look

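The sphere change and the Snail change were set against each other in 1 model, and the genes below had a difference between them, sphere change minus Snail change, past a limma adjusted p of 0.05. Of the 10 presentation genes, HLA-F (2.02), TAP2 (1.41), TAP1 (1.21), HLA-E (1.13), PSMB9 (0.87) and B2M (0.78) moved more positively in spheres, and SNAI1 did so too (1.06).

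Among related genes the same sign was seen for the heavy chains HLA-B (3.14), HLA-C (2.19) and HLA-G (1.97), whose probe sets may match each other's transcripts. The chaperones HSPA5 (1.87), CALR (1.18) and PDIA3 (0.68) also differed that way. So did the regulator RELA (1.37), the receptor chains IFNGR1 (0.77) and IFNGR2 (0.71), and the interferon-induced genes IFI6 (2.32), MX1 (1.57) and OAS1 (1.04). In class II the difference was 2.99 for HLA-DRA, 1.72 for HLA-DPA1, 1.65 for CD74 and 0.83 for HLA-DPB1, and among receptor ligands 2.31 for ULBP2 and 1.13 for CD47.

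The sign was negative for the aminopeptidases ERAP2 (-1.78) and ERAP1 (-0.65), for UGGT1 (-0.86), and for the proteasome genes PSMG1 (-1.13), PSMA4 (-0.89), PSMF1 (-0.85), PSME1 (-0.73), PSME4 (-0.68) and PSMB6 (-0.60). Of the regulators, RFXAP (-3.19), RFXANK (-1.24), RFX5 (-1.08) and IRF1 (-0.91) were negative, as were IFNAR1 (-0.66), JAK1 (-0.63), IFI27 (-1.62), IFIT3 (-1.56) and LGALS9 (-0.81). With the mean of all probe sets JAK1 differed by 0.045 in place of -0.63, and ERAP1, UGGT1, PSMF1, PSME4, IFNAR1 and CD47 did not pass either. Leaving out 1 array at a time lost the calls of ERAP1, IFNAR1 and JAK1 in 7 of 8 fits each, of PSMB6 in 6, of PDIA3 and PSME4 in 5 each, of IFNGR1 in 3, of PSMF1, LGALS9 and IRF1 in 2 each, and of PSME1, OAS1 and HLA-DPB1 in 1 each. The other differences given here passed in every one of these fits.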

How the results depend on the processing

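In spheres 5 to 7 of the 10 genes were called in every alternative, all higher, and 6 or 7 for the difference of changes. On the arrays labelled Snail the count was least stable: 2 as reported, 5 with the mean of probe sets, 5 without the dimmest 40% of genes, 5 with array weights, 4 with limma-trend, and 0 to 4 when leaving out 1 array. Over all genes that comparison had 3213 calls as reported and 1447 to 4087 when leaving out 1 array; it fell to 1472 without vector array 1, 1602 without vector array 2, 1527 without Snail array 1 and 1447 without Snail array 2. Signs turned for values that did not pass. With the mean of probe sets HLA-E was -0.20 on the arrays labelled Snail, and TAPBP was 0.27 in spheres, -0.087 on the arrays labelled Snail and 0.36 for the difference. Leaving out 1 array gave -0.046 to 0.0022 for B2M on the arrays labelled Snail, and -0.078 to 0.14 for the difference of PSMB8 (-0.040 without sphere array 2). The causes were not tested.

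Replicate numbers are shared between groups, but same-numbered arrays did not deviate together (r -0.057 to 0.061). With the number as a replicate block, 6 of the 10 genes were called in spheres, 3 on the arrays labelled Snail (TAP2 added), 5 in vector against parental cells (PSMB10 lost) and 6 for the difference, with 6081, 3065, 8970 and 5281 calls over all genes. With 2 arrays a group, small changes cannot be resolved, and near or below the array median, as for NLRC5, no measure of detection was used.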

Other observations

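Markers of colon epithelium had 3 of 9 higher and 1 lower in spheres and again 3 higher and 1 lower on the arrays labelled Snail. KRT20, a keratin of mature colon epithelium, was 1.59 ± 0.20 higher in spheres (limma adjusted p = 0.00019), and VIL1, which builds the brush border, differed by -0.77 ± 0.17. On the arrays labelled Snail CDH1, the epithelial cadherin that Snail is known to repress, was 0.76 ± 0.17 higher (limma adjusted p = 0.013), a call lost with the mean of its probe sets (limma adjusted p = 0.081) and in 3 of the 8 fits that left out 1 array, and VIL1 was lower by -1.06 ± 0.17. In vector cells against HT29 parental cells 1 of the 9 was higher and 5 lower, with KRT20 at -6.95 ± 0.20 and CDH1 at -3.38 ± 0.17. Endothelial and fibroblast markers had 0 of 9 higher and 1 lower on the arrays labelled Snail, and 2 higher and 1 lower in vector cells against HT29 parental cells. Averaging probe sets lost the call on the arrays labelled Snail, that of PECAM1 (-0.11, limma adjusted p = 0.59). It also lost the higher calls in vector cells against HT29 parental cells, PECAM1 (0.010, limma adjusted p = 0.95) and COL1A1 (0.27, limma adjusted p = 0.13). Leukocyte markers had 1 of 9 lower there, CD14 (-2.58 ± 0.20), which read 5.20 ± 0.43 in vector cells and 7.78 ± 0.27 in HT29 parental cells.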
